A study of Mus musculus with 4 samples.

Results

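The regions described are the surroundings of Shh, Hand2 and Gli3, 3 genes that set the anterior to posterior axis of the limb bud, in a list of TBX5 binding sites from mouse forelimbs. Members were all peaks whose summit, the base with the strongest enrichment, lay inside 1 of 3 fixed stretches of the genome. These stretches ran from 28500000 to 29900000 on chromosome 5 for Shh, from 59200000 to 60400000 on chromosome 8 for Hand2 and from 15200000 to 16200000 on chromosome 13 for Gli3. In this way 35 of the 11224 listed peaks were chosen, of which 2 lay in the Shh window, 21 in the Hand2 window and 12 in the Gli3 window. The choice used positions only and no measured strength, although the windows were set with earlier results of these data known.

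TBX5 is a T-box transcription factor of the forelimb bud, and its binding was mapped by chromatin immunoprecipitation and sequencing (ChIP-seq). Forelimbs came from wild type embryos of outbred ICR mice at embryonic day 10.5, and there were 2 libraries precipitated with a polyclonal TBX5 antibody and 2 input libraries of chromatin. The labels do not say how many embryos were pooled or whether the replicates came from separate litters. The list gives 1 set of values for the ChIP group, and values of single replicates or of input were not analysed here, so no spread between replicates could be attached to a peak and no test was made. Forelimb buds hold many kinds of cells, so strong binding in few cells and weak binding in many cannot be told apart in these values. No expression was measured, and the tissue could not be checked against marker genes.

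Sonic hedgehog, the product of Shh, is the signal that cells at the posterior margin of the limb bud secrete, and it directs the number and identity of the digits. Its limb expression depends on an enhancer that lies far from the gene, inside an intron of Lmbr1. HAND2 is a basic helix-loop-helix transcription factor of the posterior limb mesenchyme that activates Shh. GLI3 is a zinc finger transcription factor that carries the hedgehog signal into the nucleus. In the absence of the signal it is processed into a repressor, and in the early bud GLI3 and HAND2 restrict each other to the anterior and the posterior part.

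Gene positions need a caution that applies to every distance given here. The submitters' processing notes name mm10, which is GRCm38, as the build. However, 72 summits on 5 chromosomes had positions past the end of the final coding gene in the RefSeq table of GRCm38.p6, 22 of them on chromosome 8 and 8 on chromosome 5. Chromosome 13 had 0 such summits. A position past the last coding gene need not lie past the chromosome's end, so this check does not settle the build. The windows rest on approximate gene positions of the earlier build mm9, which are 28.78 Mb for Shh, 29.64 Mb for its limb enhancer, 59.8 Mb for Hand2 and 15.55 to 15.83 Mb for Gli3. Distances from a gene or the enhancer were rounded to 10 kb, except where alternative settings are compared. Unrounded distances from these approximate positions are no more exact than about 10 kb. Peak positions are as deposited, distances between summits follow from them, and no exon, intron or UTR was assigned. Among protein-coding genes, the RefSeq table places Shh between Rbm33 and Rnf32, with Lmbr1 next after Rnf32. It places Hand2 between Fbxo8 and Scrg1, and Gli3 before Inhba.

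The sequences under the peaks were not used here, because the build was not settled and no mm9 genome was at hand. The promoters of Hand2 and Gli3 are shown because the weakest peak of each of their windows was also the one nearest to, or at, the approximate start of the gene. Each line gives the 250 bases before the start site, 5′ to 3′ on the strand of the gene, from RefSeq on GRCm38.p6. Both genes are read on the plus strand, so positions below the gene lie upstream of it.
Hand2: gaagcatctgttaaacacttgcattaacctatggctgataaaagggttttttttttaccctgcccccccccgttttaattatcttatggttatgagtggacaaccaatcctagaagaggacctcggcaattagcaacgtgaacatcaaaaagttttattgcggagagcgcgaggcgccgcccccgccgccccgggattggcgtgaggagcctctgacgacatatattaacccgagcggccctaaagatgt
Gli3: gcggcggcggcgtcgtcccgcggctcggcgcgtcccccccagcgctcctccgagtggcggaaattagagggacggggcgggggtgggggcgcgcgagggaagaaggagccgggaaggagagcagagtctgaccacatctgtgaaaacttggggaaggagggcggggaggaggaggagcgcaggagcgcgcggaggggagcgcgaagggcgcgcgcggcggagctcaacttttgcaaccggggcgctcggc
T-box factors bind DNA around the letters GGTGT, within the longer consensus AGGTGTGA. Neither the core GGTGT nor GGTGTGA nor AGGTGTGA was found on either strand of these 2 promoters or of the 50 bases that follow, so no letter is set in capitals. Of all 32851 promoter entries of 300 bases in the table, 41.6% held the core, 3.98% held GGTGTGA and 1.28% held AGGTGTGA, each longer motif containing the shorter ones. The Gli3 promoter was rich in G and C, at 71.0% of its 300 bases against a median of 52.7% over all entries, while Hand2 had 50.3%. The absence of these letters says only that they do not occur in these windows.

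Each peak carried a signal value, which is the strength that the authors' peak caller gave it on a scale the sources used here do not state, and a score for reproducibility. The score comes from the irreproducible discovery rate (IDR), which compares the ranking of peaks in the replicates. It ran from 540, an IDR of 0.05, to a ceiling of 1000, and a score of at least 830 stands for an IDR of 0.01 or below. Signal values of the whole list ran from 5.29 to 266.0 with a median of 27.2, and the highest 10% began at 61.3.

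TBX5 peaks were few around Shh. The window of 1.4 Mb held 2 peaks, or 1.43 per Mb, against 4.34 per Mb on chromosome 5 and 4.41 per Mb over the list. At the density of the list, 6.18 peaks would lie in a stretch of this length. Windows with so few peaks were common, however. Among 25192 overlapping windows of 1.4 Mb placed every 100 kb along the chromosomes, 33.3% held 2 or fewer, and the median was 4.

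The peak at the position of the limb enhancer lay at 29641600 to 29642015 on chromosome 5, with its summit at 29641808. That summit fell within 10 kb of 29.64 Mb, the approximate position of the enhancer, and about 860 kb from Shh. Its signal value was 25.1, which ranked 6345 of 11224, and its score was 808, an IDR of 0.0113. A listed peak thus lay at the approximate position of the enhancer, with a signal just below the median of the list.

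The other peak of the Shh window lay at 29417828 to 29418243, between the gene and the enhancer, about 640 kb from Shh and 220 kb from the enhancer position. Its signal value was 25.9 and its score 759, an IDR of 0.0149. Both peaks passed the limit of the list, and neither reached an IDR of 0.01 or the list's median signal. Their −log10 q-values, the significance given by the peak caller, were 3.65 at the enhancer position and 3.63 for the other.

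At the mm9 position of Shh no summit was listed nearby. The nearest one was at 28492056, about 290 kb away and just outside the window, with a signal value of 21.3 and a score of 773. The stretch without a summit that contains Shh ran 926.0 kb from there to the peak at 29418036. Distances between neighbouring summits at least as long made up 41.6% of the span that the list covers, so a position in such a stretch was common. Beyond the enhancer, the next summit was at 30153628, 511.8 kb from the summit at the enhancer position, with a signal of 46.7 and the top score of 1000.

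Hand2 stood at the other end of the range. Its window of 1.2 Mb held 21 peaks, or 17.5 per Mb, which was 3.97 times the density of the list, where 5.3 peaks would be expected. On chromosome 8 as a whole the density was 4.82 per Mb. Of 25232 windows of that length, 2.71% held at least 21 summits, and the median window held 4.

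These peaks lay almost entirely on the upstream side of Hand2, towards Fbxo8. Below the gene and more than 10 kb from it there were 18, with signal values from 18.2 to 179.1 and a median of 40.01. A single peak lay within about 10 kb of the gene, and above it, towards Scrg1, there were 2. The last summit of the window, at 59884278, was followed by 1013 kb without a summit. Of the distances between neighbouring summits in the list, 4.39% were at least as long. Upstream the peaks went on past the window, since the next summit below it, at 59188416, was only 23.9 kb from the first member and had a signal of 67.9 with a score of 1000.

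**Figure D1:**
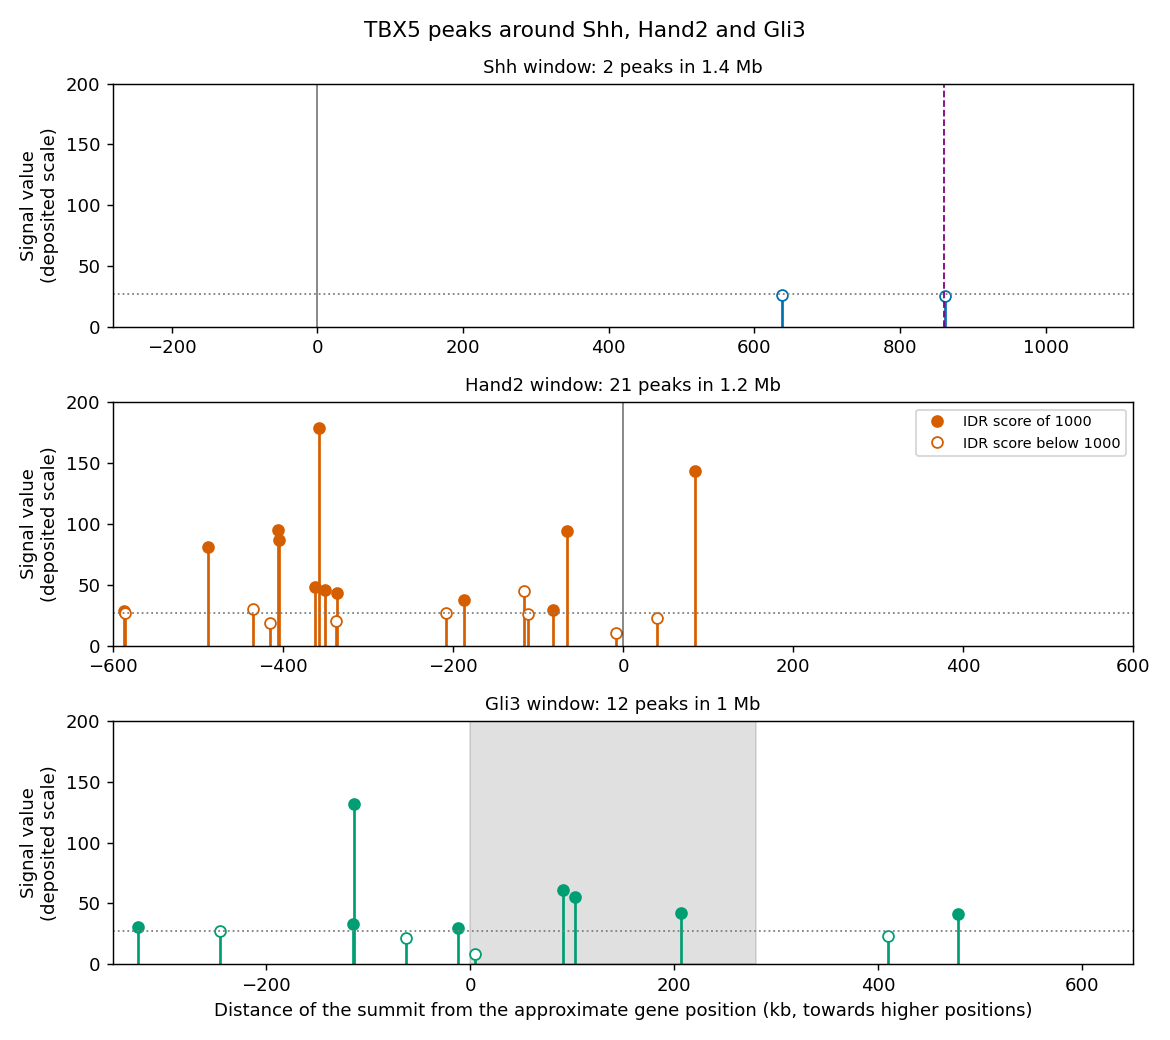
Signal value of each TBX5 peak (vertical axis, deposited scale) against the distance of its summit from the approximate position of the gene (horizontal axis, kb), for the Shh, Hand2 and Gli3 windows. Filled points have an IDR score of 1000 and open points a lower one, the solid line or grey band marks the gene, the dashed line the limb enhancer of Shh and the dotted line the list's median signal of 27.2; the 2 Shh peaks are below that median, while the Hand2 peaks crowd on the upstream side.

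The strongest peak near Hand2 lay at 59441363 to 59441684, about 360 kb upstream. Its signal value of 179.1 ranked 28 in the whole list, and its score was 1000. The second, at 59884127 to 59884449 and about 80 kb on the other side of the gene, had a signal value of 143.9, rank 84 and the same score. A site on either side of Hand2 was thus among the strongest of the list, although the numbers of peaks on the sides were so unequal.

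Next in strength came a pair about 410 kb upstream, whose summits were 673 bp apart. The peak at 59394207 to 59394437 had a signal value of 94.7 and the one at 59394900 to 59395115 had 86.9. A peak at 59733440 to 59733664, about 70 kb upstream, had a signal of 94.4, and one at 59311485 to 59311720, about 490 kb upstream, had 81.3. All 4 had the score of 1000 and ranked between 333 and 534 in the list.

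Peaks near Hand2 formed a dense stretch within the upstream region. A stretch of 151.4 kb, from 59311610 to 59462989, held 10 of the 21 summits, with a median signal of 46.8. It was picked as the densest 200 kb of the window, and the density of such stretches elsewhere was not computed. When summits no more than 10 kb apart were chained, 12 of the 21 fell into 5 groups of 2 or 3, and 9 stood alone. The group with the strongest peak had 3 summits over 11.7 kb, and its other members had signal values of 47.9 and 45.8. Another summit within 10 kb was present for 57.1% of the Hand2 peaks, against 42.7% of the list.

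The weakest peak of the Hand2 window was the one nearest to the gene, at 59791140 to 59791555. Its signal value was 10.6 and its score 620, an IDR of 0.0321. Its −log10 q-value was 1.24, a q-value of 0.058, and it was the only Hand2 peak with a q-value above 0.05. The next lowest signals were 18.2, at 59384128 to 59384543 about 420 kb upstream, and 20.5, at 59461342 to 59461757 about 340 kb upstream. Their scores were 558 and 616, and the first of these was the lowest score of all 35 peaks.

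The remaining Hand2 peaks had signals between 22.5 and 42.9. Farthest upstream, about 590 kb from the gene, 2 peaks with summits 1740 bp apart had signals of 28.46 and 26.7 and scores of 1000 and 777. The peak next to the one of 20.5, with its summit 1439 bp away, had a signal of 42.9 and a score of 1000. Closer to the gene, peaks about 210 and 190 kb upstream had 26.8 and 37.1, with scores of 932 and 1000. At about 110 kb and 80 kb the signals were 25.9 and 29.4, with scores of 702 and 1000, and at about 440 kb the signal was 29.8 with a score of 855. The weaker of the downstream peaks, about 40 kb from the gene, had 22.5 and a score of 585, an IDR of 0.039.

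Gli3 lay between the others in number of peaks. Its window of 1 Mb held 12, which was 2.72 times the density of the list, against 5.18 per Mb on chromosome 13. Of 25272 windows of that length, 8.19% held at least 12 summits, with a median of 3. The peaks lay upstream of Gli3, inside it and downstream of it. Hand2 was placed at a single position, so no peak could be counted inside that gene. There were 6 upstream, 1 at the approximate start, 3 inside the gene and 2 downstream, on the side of Inhba.

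The strongest Gli3 peak lay at 15435427 to 15435723, about 110 kb upstream. Its signal value was 131.4, rank 118 of the list, and its score 1000. A weaker peak with a signal of 32.96 and the same score lay at 15434916 to 15435178, with its summit 538 bp away. These were the only Gli3 summits that had another within 10 kb. The remaining 10 stood alone, and the longest distance between them, 202.7 kb, began inside the gene and reached past its end.

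The 3 peaks inside Gli3 were the next in strength. A peak at 15641199 to 15641379 had a signal value of 60.7, the one at 15652338 to 15652514 had 54.96, and their summits were 11137 bp apart. The third, at 15756511 to 15756926, had 42.03. All 3 had a score of 1000, and each exceeded every Gli3 peak outside the gene other than the strongest. The first of them fell just short of the list's highest 10%, which began at 61.3.

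Downstream of Gli3, the peak about 200 kb past the gene at 16027828 to 16028243 had a signal of 41.4 and a score of 1000. The other, about 130 kb past it at 15959169 to 15959584, had 22.9 and 824, an IDR of 0.0104 that narrowly missed 0.01. Upstream, the peak farthest from the gene, at 15224087 to 15224502 and about 330 kb away, had a signal of 30.98 and the top score. The one at 15304612 to 15305027, about 250 kb away, had 27.4 and a score of 801, and the one at 15487062 to 15487477, about 60 kb away, had 21.3 and 688. A peak at 15537913 to 15538328, about 10 kb before the approximate start, had 29.5 with a score of 1000.

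As at Hand2, the peak nearest to the approximate start of Gli3 was the weakest of its window. However, the peak before it, with a signal of 29.5, also lay about 10 kb from that start. By rounded distance this equals the weak Hand2 peak, so weakness was not shared by all peaks this near. It lay at 15554552 to 15554967 and had a signal value of 8.51, and 3.6% of the list had a signal as low or lower. Its −log10 q-value was 0.597, a q-value of 0.253, yet its score was 757, an IDR of 0.015. No summit lay closer to it than 16.6 kb, and none closer to the weak Hand2 peak than 48.7 kb. They were the only 2 of the 35 (5.71%) whose q-value exceeded 0.05, against 6.07% of the list.

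**Figure D2:**
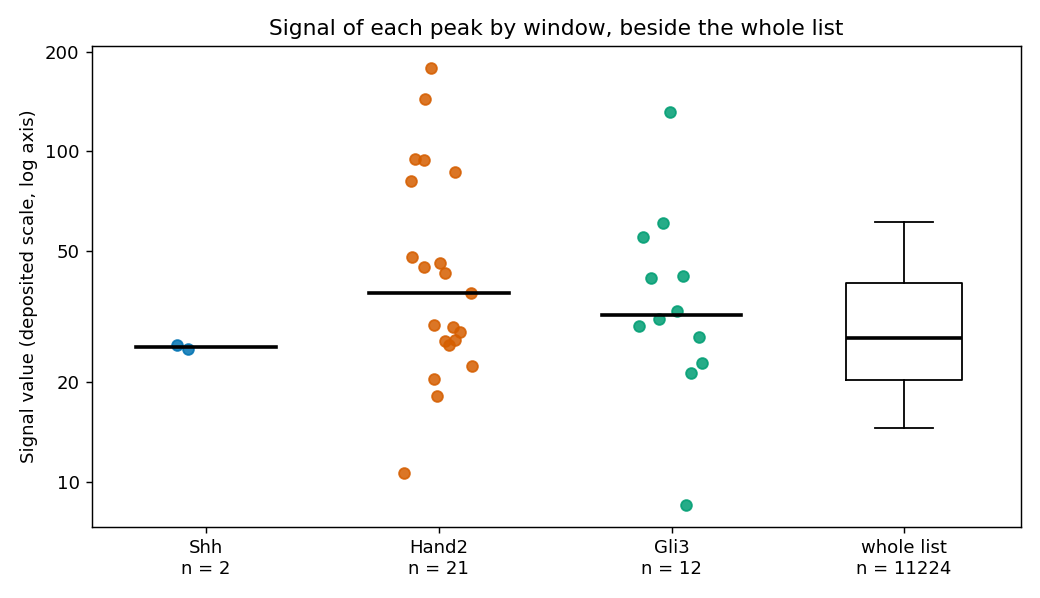
Signal value of every peak (log axis, deposited scale) in the Shh, Hand2 and Gli3 windows, with a black line at each window's median, beside the whole list as a box of the quartiles with whiskers at the 10th and 90th percentiles. The medians are 25.5, 37.1 and 31.97 against 27.2 for the list, and the lowest Hand2 and Gli3 points, at 10.6 and 8.51, are the peaks nearest to the approximate gene starts.

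Strength differed more within the Hand2 and Gli3 windows than between them. The median signal was 37.1 near Hand2, with quartiles of 26.7 and 81.3, and 31.97 near Gli3, with quartiles of 26.3 and 45.3, so the ranges overlapped widely. The highest 10% of the list by signal held 6 Hand2 peaks, 1 Gli3 peak and no Shh peak. That is 20% of the 35 against 10% of the list. Above the list's median signal were 14 of 21 near Hand2, 9 of 12 near Gli3 and 0 of 2 near Shh, or 65.7% of all 35 against 50.0% by definition. These shares rest on small numbers, and the exact 95% binomial (Clopper-Pearson) intervals, which treat peaks as independent, run from 8.44% to 36.9% for the first and from 47.8% to 80.9% for the second, and both include the level of the list.

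The IDR score was read against its distribution in the whole list. A score of at least 830 was given to 14 of 21 Hand2 peaks, 8 of 12 Gli3 peaks and 0 of 2 Shh peaks, which is 62.9% of the 35 against 60.0% of the list, a share near that background. The ceiling of 1000 was reached by 12 Hand2 and 8 Gli3 peaks, or 57.1% against 45.4%. The best q-value of the list, 3.95 on the −log10 scale, was shared by 11 Hand2 and 6 Gli3 peaks, or 48.6% against 38.6%. Among the 35 peaks, those with it had signals of at least 32.96 and those without it at most 30.98. This share is therefore not a measure separate from signal. The peaks with a score of 1000 had signals from 28.46 to 179.1, and the others from 8.51 to 44.7. Across the 35 peaks, which share 1 list and the same pair of replicates, Spearman's rho between signal and score was 0.82, against 0.80 over the list.

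**Figure D3:**
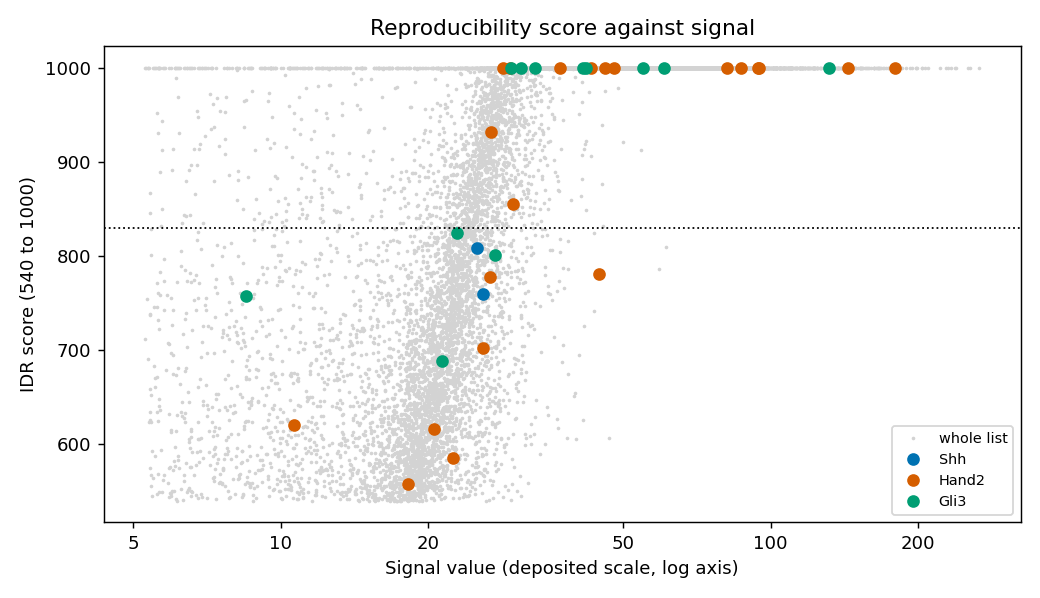
IDR score (vertical axis, 540 to 1000) against signal value (horizontal log axis, deposited scale) for all 11224 peaks in grey and the Shh, Hand2 and Gli3 peaks in colour, with a dotted line at the score of 830. Both Shh peaks lie just below that line at signals of 25.1 and 25.9, and the Hand2 point at 44.7 and 781 lies to the right of the main band.

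A single Hand2 peak stood out from this relation. The peak at 59683553 to 59683720, about 120 kb upstream, had a signal of 44.7 and the best q-value, but a score of 781, an IDR of 0.0132. It was picked after its values were seen. Among the 2802 peaks of the list with a signal above 40, only 10 had a score below 830.

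The median signal differed between narrower peaks and those of the common width. The most frequent width of the list, 416 bp, was found in 23 of the 35 peaks (65.7%), against 84.3% of the list. The other 12 were narrower, from 152 to 323 bp, and had a median signal of 84.1 against 26.8 for those of the common width. The ranges overlapped, since the weakest narrower peak had a signal of 32.96 and the strongest of the common width 45.8. Over the list, narrower peaks likewise had the higher median, 66.6 against 24.8. Both Shh peaks and the weak peaks nearest to the approximate starts of Hand2 and Gli3 had the common width. In all 23 the summit was the middle of the interval, as in 9458 of the 9459 peaks of this width in the list. How finely these summits were located was not tested.

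**Figure D4:**
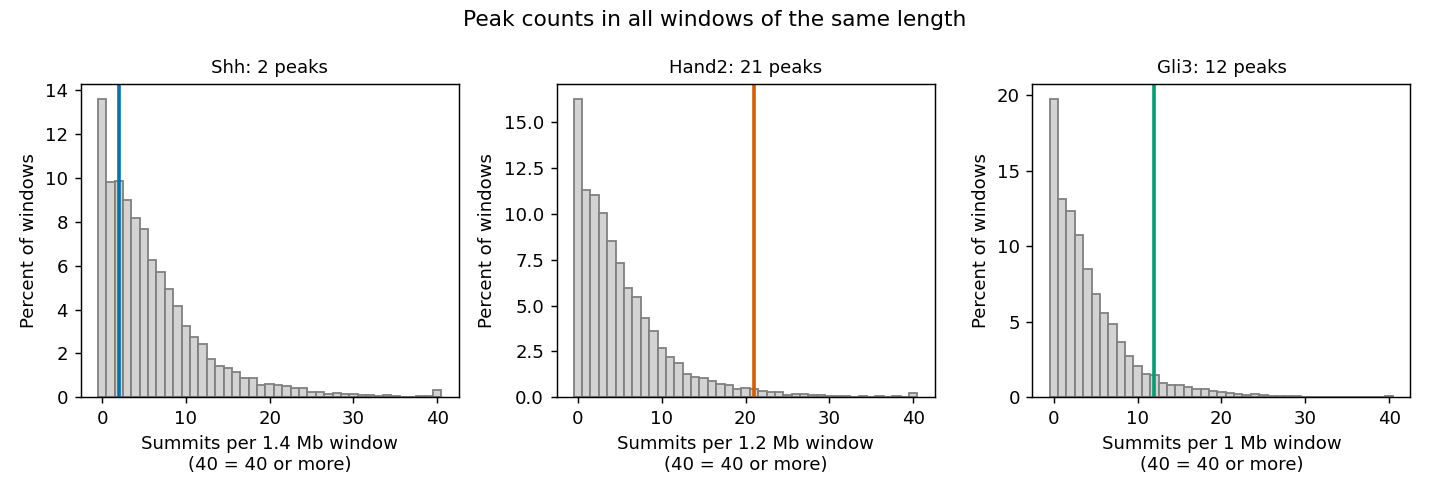
Percent of windows (vertical axis) by number of TBX5 summits (horizontal axis) for all windows of 1.4, 1.2 and 1 Mb placed every 100 kb, with a coloured line at the count of the Shh, Hand2 and Gli3 window. The Shh line at 2 lies in the body of the distribution, where 33.3% of windows hold as few, and the Hand2 and Gli3 lines at 21 and 12 lie in its upper tail, reached by 2.71% and 8.19% of windows.

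At an IDR of 0.01 or below, a limit that 60.0% of the list passed, 22 of the 35 peaks were left. Of the 21 Hand2 peaks 14 passed, 13 of them upstream, and of the 12 Gli3 peaks 8 passed, including all 3 inside the gene. Neither of the 2 Shh peaks passed, so the peak at the limb enhancer position was not among those left. The results near Hand2 and Shh depend on the build from which gene positions are taken. If the peaks are on mm9, gene positions of GRCm38 do not apply to them, and the following values are no alternative result. At the position that the GRCm38 gene table gives for Hand2, a window of the same size held 0 peaks. The same change gave 2 peaks near Shh, of which 1 was shared with the main window and the peak at the limb enhancer position was not included. The distance from Shh to the nearest summit was then 24.95 kb in place of 287.9 kb. Near Gli3 there were 13 peaks, which included all 12 of the main window.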

How the data were processed

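TBX5 ChIP-seq peaks of forelimbs from mouse embryos at embryonic day 10.5 were analysed, with 2 ChIP and 2 input libraries grouped by their titles. The authors deposited 1 headerless list of reproducible peaks at an IDR of 0.05, by its name, and its 10 columns follow the narrowPeak layout. Per the submitters' processing notes the build was mm10 and FastQC was used. The aligner, peak caller and their settings are not given in the sources used here. The deposited score is the IDR score, the deposited signal value is the peak caller's strength on an unstated scale, and the deposited −log10 q-value is its significance. Read depth is unknown, so only counts of peaks carry an interval, which covers counting error alone.

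Positions were made 1-based, and peaks were chosen by summit with both bounds included. Densities were taken over the distance between the outermost summits of each chromosome. Promoter letters were searched in the RefSeq table, which matched 2 of the 3 genes, Hand2 and Gli3. Python 3.11.15, NumPy 2.4.6, SciPy 1.17.1, pandas 2.3.3 and matplotlib 3.10.9 were used, and the counting functions were tested on simulated data. In each window the 5 strongest and 3 weakest peaks and those nearest to a gene were to be named, and all peaks of a window with 12 or fewer. The members, windows and this rule were chosen with earlier results of these data known. Alternatives were a stricter IDR, the upper 50% of signal, joined or dropped close summits, membership by overlap, narrower windows and gene positions on the other build.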

Additional observations from a re-analysis of the deposited data

How the results depend on the processing

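For 17 results, 110 alternative values were computed under 7 settings, and 92 stayed within 1.5 times the count, density or median, within 10 kb of the distance, or inside the interval of the share. Some of these values could hardly move. The interval for the Shh share of 0 of 2 reaches 84.2%, and the Gli3 distance is 0 whenever any summit lies inside the gene. Joining summits within 1000 bp, dropping peaks near a stronger summit within 500 bp, membership by overlap and windows narrowed by 10% on either side moved none of them, and the number of peaks stayed between 31 and 35. At an IDR of 0.01 or below the 3 windows held 22 peaks in place of 35, and in the upper 50% of signal 23. Both settings left 0 peaks and a relative density of 0 in the Shh window, in place of 2 and 0.324. Both moved the nearest summit from 287.9 to 1374 kb for Shh, from 1.81 to 513.6 kb for the limb enhancer position and from 8.65 to 66.4 kb for Hand2. In the upper 50% of signal, 92.9% of Hand2 peaks had a score of at least 830, in place of 66.7%. These shifts follow from the removal of weaker peaks. At the gene positions of GRCm38.p6, which apply only if the peaks are on that build, the windows held 15 peaks in all. Hand2 then had 0, a relative density of 0 and 1231 kb to the nearest summit, while the nearest summit to Shh was 24.95 kb away. The limb enhancer is not in the gene table, so its distance was not computed there.

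No paired analysis was possible because single replicates carry no values in the list, and leaving out either replicate could not be tried. Which sites were missed for lack of reads cannot be seen without depth.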

Other observations

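The 2 weak peaks, near the approximate position of Hand2 and at the approximate start of Gli3, were the only members with a q-value above 0.05. They were thus picked by their values. Of the 681 peaks in the list with a q-value above 0.05, only 64 (9.4%) had no other summit within 10 kb, and both were among these 64. Standing alone was otherwise common. Another summit within 10 kb was present for only 42.7% of the whole list and 40% of the 35 peaks. Whether the others of these 64 also lie near gene starts was not tested.

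The deposited q-value did not rise steadily with signal. Among the 18 of the 35 peaks below the best q-value, the 13 with signals from 22.5 to 30.98 became less significant as signal rose (Spearman's rho = -1). The Hand2 peak with a signal of 22.5 had 3.73 on the −log10 scale, and the Gli3 peak with 30.98 had 3.49. Over the list, the same held for the 3235 peaks below the best q-value with a signal of at least 22.1 (rho = -1). This bound is the signal at which the q-value turns, so it was set by the values themselves. Below it the q-value became more significant with signal, with a rho of 0.945 over 3658 peaks of the list and 0.9 over the 5 such members. The best value of 3.95 began at a signal of 31.7. These points share 1 list and 1 scale. By q-value, the peak at the limb enhancer position of Shh, with 3.65 and a signal of 25.1, thus ranks above that stronger Gli3 peak.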
